A study of Homo sapiens with 2 samples.

Results

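The adhesion G protein-coupled receptors are the receptors of the ADGR gene symbols, and 28 protein-coding genes carry such a symbol among the 57736 genes of the RNA-Seq count table. The rule for members used the symbol alone, after 55501 Ensembl identifiers had been matched to the GENCODE annotation lifted to GRCh37. The family itself was picked with earlier results of these data known. A1847 is an ovarian cancer line of human origin. RNA was sequenced in 1 library of the parental line, which is CARM1 wild type, and in 1 library of CARM1 knockout (CARM1 KO) cells of the same line. The labels give the same serum-containing medium and no drug for both. The knockout was made with a lentiviral CRISPR vector that carries a guide RNA against CARM1, an arginine methyltransferase, and is described as a clone. With 1 library per condition, no difference has a replicate check, and loss of CARM1 and the choice of this clone cannot be told apart. The comparison asks which of these receptors differed in RNA level between CARM1-expressing cells and CARM1 KO cells.

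Adhesion receptors combine a long extracellular part, built from domains that bind matrix proteins or proteins on neighbouring cells, with a membrane-spanning part that signals through G proteins. Between these parts lies the GAIN domain, which in many members cuts the chain itself at a short site. The fragments stay together on the cell surface, and the new end left by the cut can act as a tethered agonist when the outer fragment is pulled away. The family is known for its roles in myelination, synapse formation, blood vessels, leukocytes and the inner ear.

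The coding bases of the cut site are shown for receptors on which the results below turn, because this site lies between the outer and the signalling parts. Each run is read from the canonical transcript in GRCh37, in the coding direction and within 1 exon. The 9 bases in capitals code for the histidine, the leucine or phenylalanine, and the threonine or serine at the cut, which falls before the last of these.
ADGRL2 (chr1:82433839-82433865, plus strand): CACCTAACCaattttgcaattctcatg
ADGRL1 (chr19:14268709-14268735, minus strand): CACCTCACCaacttcgctgtgctcatg
ADGRG6 (chr6:142732522-142732548, plus strand): CACTTCACAcactttggagttctgatg
ADGRG1 (chr16:57690503-57690529, plus strand): CACTTGACCtactttgcagtgctgatg
ADGRG2 (chrX:19024120-19024146, minus strand): CATCTAACAagcttcggcgttctgctg
ADGRE5 (chr19:14515330-14515356, plus strand): CACCTGAGCagctttgcgatccttatg

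ADGRL2 and ADGRG6 had identical bases at 19 of these 27 positions, and ADGRG1 and ADGRG6 at 22. The pattern searched was histidine, then leucine, phenylalanine, methionine or isoleucine, then serine or threonine, any residue, phenylalanine or leucine, any residue, valine, isoleucine or leucine, and leucine or methionine. It was written from the known site of the family, so its presence is not a finding. It occurred once in 18 of the 28 receptors and in 0.161% of 19866 other protein-coding genes. In the other 10 receptors, ADGRE1, ADGRA3 and ADGRV1 among them, these residues were not found, which says nothing about whether the protein is cut.

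A read in the table is a sequenced fragment that the authors' counting assigned to a gene. The libraries held 30741953 reads in parental cells and 32300391 in CARM1 KO cells. CARM1 had 975 parental and 380 CARM1 KO reads, and was 2.63-fold lower (95% interval 2.33 to 2.97), under the 3-fold threshold used below. This is a value of RNA and gives no measure of CARM1 protein, which the paper examined by immunoblot in parental and knockout cells. Of 7 ovarian tumour and epithelial markers, 4 were higher past 3-fold in CARM1 KO cells. The summed reads of the 7 were 39523 in parental and 124780 in CARM1 KO cells. Most of these reads came from KRT8 (17600 and 70370) and KRT18 (21154 and 51223), and KRT18 did not pass 3-fold. MUC16 had 0 and 1 reads, and WT1 had 8 and 1 reads. Of 5 fibroblast markers, 3 were lower and 1 was higher, with summed reads of 14544 in parental and 543 in CARM1 KO cells. PDGFRA held most of the parental sum (14326 reads). COL1A1, which was higher, held most of the CARM1 KO sum (537 reads). Of 5 endothelial markers, none passed 3-fold and CDH5 had 0 reads in both libraries. Of 6 leukocyte markers, 2 were higher, with summed reads of 412 and 1660 that were almost all from CD68, while CD3E and FCGR3A had 0 reads in both and PTPRC had 6 and 0 reads. Of 6 neural and glial markers, 1 was higher, and SOX10 and OLIG2 had 0 reads in both. The part these markers have in the receptor values was not tested.

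In parental cells ADGRL2 was the most abundant adhesion receptor, and in CARM1 KO cells it was ADGRG6. The 28 receptors together held 18610 parental and 13674 CARM1 KO reads. ADGRL2, latrophilin 2, held 66.4% of these reads in parental cells (exact 95% binomial interval 65.7 to 67.1) and 27.3% in CARM1 KO cells (26.6 to 28.1). ADGRG6, also called GPR126, held 12.02% in parental cells (11.6 to 12.5) and 56.3% in CARM1 KO cells (55.4 to 57.1). The order of this pair was therefore opposite in the libraries. In bulk RNA, fewer cells with a receptor and less of its RNA per cell cannot be told apart. The other 26 receptors held 4018 parental and 2245 CARM1 KO reads, which was 1.83-fold lower after scaling. These intervals, like all those below, cover counting error only, and reads without molecular identifiers are not independent molecules.

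Of the 28 receptors, 14 had at least 10 reads in both libraries together and were compared. TMM factors from edgeR scaled the fold changes, and a gene was counted as past 3-fold when its scaled fold change was above 3 and its exact 95% binomial interval left out 1. By this rule 4 receptors, ADGRE1, ADGRG2, ADGRG6 and ADGRG1, were higher in CARM1 KO cells. For comparison, 12.4% of all 18563 genes with at least 10 reads, and likewise 12.4% of the 14140 protein-coding genes, were higher by the same rule. ADGRL2 alone was lower past 3-fold, against 11.2% of all genes and 9.02% of protein-coding genes. Across the 14 receptors the median log2 fold change was 0.00, with 7 above 0 and 7 below. The median was -0.02 over all genes and 0.03 over those that code for proteins. Receptors thus lay on both sides of 0 in equal number.

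How often genes passed 3-fold depended on their depth. Among protein-coding genes with 10 to 99 reads in both libraries together, 23.8% were higher and 20.3% were lower, and 3 of the 6 receptors at this depth were higher. Among those with at least 1000 reads, 5.63% were higher and 4.6% were lower. Of the 4 receptors at this depth, ADGRG6 was higher and ADGRL2 was lower, while ADGRA3 and ADGRL1 were lower without passing 3-fold. From 100 reads up to fewer than 1000, 18% of protein-coding genes were higher and 10.5% were lower, against 0 of 4 receptors in either direction.

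Other rules for the count gave other numbers of receptors. With the whole interval past 3-fold, 2 were higher (ADGRE1 and ADGRG6) and ADGRL2 was lower, against 6.96% and 6.65% of all genes. With a fold above 2, 4 were higher and 4 were lower, against 18.3% and 17.1%. With at least 1 read, 4 were higher and 2 were lower, against 9.19% and 8.6%, and with at least 50 reads 4 and 1, against 11.4% and 8.39%. An edgeR exact test with an assumed coefficient of variation of 0.12 between replicates kept the same receptors, against 11.8% and 10.6% of all genes, and with 0.4 it left 0 in either direction, against 2.87% and 4.82%. The same 5 receptors passed under each other scaling, against 12.1%, 12.6%, 12.5% and 12% of all genes higher and 11.5%, 10.8%, 11.1% and 11.6% lower with library size, DESeq2 size factors, the upper quartile and TMM over protein-coding genes.

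**Figure D1:**
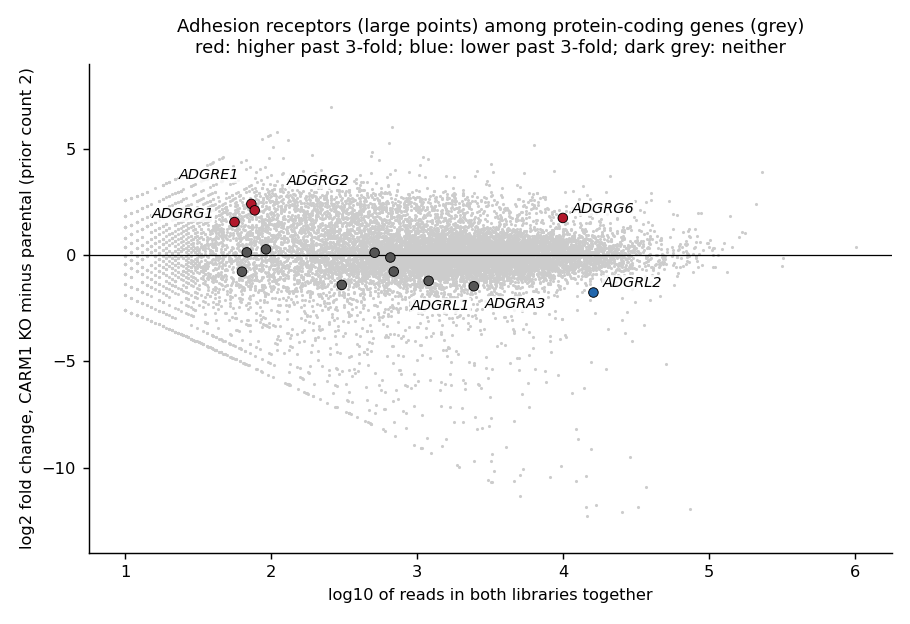
The log2 fold change (CARM1 KO minus parental, prior count of 2, vertical axis) is plotted against the log10 of the reads in both libraries together (horizontal axis) for protein-coding genes with at least 10 reads (light grey) and for the 14 adhesion receptors (large points; red, higher past 3-fold; blue, lower past 3-fold; dark grey, neither). ADGRG6 at 1.75 and ADGRL2 at -1.76 lie at high depth on opposite sides of 0, and the other receptors higher past 3-fold lie under 100 reads.

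The receptor with the most reads in CARM1 KO cells was ADGRG6, which is needed for Schwann cells to begin myelination and binds collagen IV and laminin. It lies on chromosome 6 (chr6:142622991-142767403, plus strand, GRCh37). ADGRG6 had 2236 parental and 7694 CARM1 KO reads. It was 3.36-fold higher in CARM1 KO cells (95% interval 3.21 to 3.52), and the whole interval lay past 3-fold. No other gene shared a run of 75 bases, the length of a read, with its canonical transcript.

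The receptors ADGRE1 and ADGRG2 were also higher, from few reads. ADGRE1, known from human eosinophils and, in the mouse, as the macrophage marker F4/80, had 10 parental and 63 CARM1 KO reads, a ratio of 6.15 (95% interval 3.14 to 13.5). ADGRG2, also called GPR64 and known from the epididymis, had 13 and 64 reads, a ratio of 4.81 (95% interval 2.62 to 9.52). ADGRG1, also called GPR56, a collagen III receptor of the developing brain and of lymphocytes, had 13 and 43 reads. It was 3.23-fold higher (95% interval 1.71 to 6.55), the closest to the threshold of the receptors past it. Of the leukocyte receptors beside ADGRE1, ADGRE2 had 32 and 36 reads, ADGRE3 had 1 and 0 reads, and ADGRG3 had 0 reads in both libraries. Of the subfamily E receptors compared, ADGRE1, ADGRE2 and ADGRE5, only ADGRE1 passed 3-fold. Of the leukocyte markers above, CD68 (400 and 1644 reads) and CD14 (1 and 9 reads) were higher. PTPRC had 6 and 0 reads, ITGAM had 5 and 7, and CD3E and FCGR3A had 0 in both libraries. The part of these markers in the value of ADGRE1 was not tested.

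Per length, the levels of these receptors remained far below that of ADGRG6. Levels per length are given as RPKM, reads scaled to exon length and library size, computed here from the counts and the annotated exons. In CARM1 KO cells ADGRG6 stood at 28.5 RPKM (95% Poisson interval 27.8 to 29.1), against 0.533 for ADGRE1 (0.41 to 0.682), 0.198 for ADGRG2 (0.152 to 0.252) and 0.15 for ADGRG1 (0.108 to 0.202). In parental cells the same receptors stood at 8.47, 0.0866, 0.0411 and 0.0463 RPKM.

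Promoters of the receptors past 3-fold with exactly 1 promoter in the RefSeq table are shown because they differ in CG dinucleotides, the sites of DNA methylation, which are set in capitals. Each runs from 250 bases before to 50 bases after the annotated start in GRCh38.p14, 5′ to 3′ on the strand of the gene.
ADGRG6 (GRCh38.p14 chr6:142301757-142302056, plus strand): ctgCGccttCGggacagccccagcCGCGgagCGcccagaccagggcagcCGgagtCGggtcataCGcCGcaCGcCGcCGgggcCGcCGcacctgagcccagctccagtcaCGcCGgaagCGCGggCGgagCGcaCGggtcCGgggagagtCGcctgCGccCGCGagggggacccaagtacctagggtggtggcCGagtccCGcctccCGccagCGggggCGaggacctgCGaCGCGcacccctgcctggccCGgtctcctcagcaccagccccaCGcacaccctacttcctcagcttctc
ADGRG2 (GRCh38.p14 chrX:19122419-19122718, minus strand): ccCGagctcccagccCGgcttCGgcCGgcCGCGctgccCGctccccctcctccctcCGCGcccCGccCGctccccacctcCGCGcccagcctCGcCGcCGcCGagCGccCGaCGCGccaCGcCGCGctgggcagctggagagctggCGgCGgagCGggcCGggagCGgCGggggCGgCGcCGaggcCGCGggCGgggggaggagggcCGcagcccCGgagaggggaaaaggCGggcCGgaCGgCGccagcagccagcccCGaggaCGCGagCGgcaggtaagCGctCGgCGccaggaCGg
ADGRE1 (GRCh38.p14 chr19:6887329-6887628, plus strand): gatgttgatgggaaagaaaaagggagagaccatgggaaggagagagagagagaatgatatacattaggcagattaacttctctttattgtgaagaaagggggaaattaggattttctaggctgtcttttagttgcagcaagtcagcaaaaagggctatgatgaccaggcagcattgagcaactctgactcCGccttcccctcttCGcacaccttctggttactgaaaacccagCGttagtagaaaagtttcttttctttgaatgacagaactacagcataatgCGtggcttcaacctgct

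The CG dinucleotide reads the same on both strands and occurred at least once in 96% of the 35116 promoters of the table, with a median of 14 per promoter. The ADGRG6 promoter held 36, more than 87.3% of all promoters, and the ADGRG2 promoter held 50, more than 98.7%. The ADGRE1 promoter held 4, more than 24.5%. Receptors higher in CARM1 KO cells thus had both CG-dense and CG-poor promoters. Among the 19 receptors with a promoter in the table, CG-dense promoters also occurred without any read. ADGRA1 had 0 reads in both libraries, and its promoters held 41 and 13. ADGRA3 and ADGRB2, with 40 and 48, were lower in CARM1 KO cells without passing 3-fold. The counts do not show which promoter a gene used, and DNA methylation was not analysed here.

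The latrophilins, ADGRL1 to ADGRL3, are receptors for teneurins and FLRT proteins and are best known from synapses. ADGRL2 (chr1:81771832-82459616, plus strand, GRCh37) had 12356 parental and 3735 CARM1 KO reads, 3.39-fold lower (95% interval 3.26 to 3.51). ADGRL1 (chr19:14258555-14316999, minus strand) had 830 and 366 reads and was 2.32-fold lower (95% interval 2.05 to 2.63), under the threshold. ADGRL3 had 41 and 51 reads, a ratio of 1.22 (95% interval 0.79 to 1.88) that included 1. The latrophilins with most reads were both lower, and a change of ADGRL3 was not detectable at this depth. ADGRL4, an endothelial receptor that shares the symbol, had 9 and 0 reads, at least 3.07-fold lower against the 3 reads that a count of 0 allows, a bound that leaves out the counting error of the 9 reads. With 9 reads in all it was under the minimum for the comparison.

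ADGRA3, ADGRB2, ADGRE5 and ADGRB3 were lower in CARM1 KO cells without passing 3-fold. ADGRA3, also called GPR125 and linked to planar cell polarity, had 1780 and 659 reads and was 2.76-fold lower (95% interval 2.53 to 3.03). ADGRB2, a brain receptor of the BAI group, had 220 and 84 reads and was 2.68-fold lower (95% interval 2.08 to 3.49). ADGRA3 and ADGRB2 lay just under the threshold of 3, while ADGRG1 and ADGRG6 lay just past it in the other direction, and the intervals of ADGRA3 and ADGRB2 reached past 3. ADGRE5, also called CD97, had 432 and 258 reads and was 1.71-fold lower (95% interval 1.47 to 2.01). ADGRB3, a synaptic receptor for C1q-like proteins, had 40 and 23 reads and was 1.78-fold lower (95% interval 1.04 to 3.12).

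ADGRA2 and ADGRV1 had nearly equal reads in both libraries. ADGRA2, also called GPR124, which takes part in WNT7 signalling in brain vessels, had 336 and 318 reads, a ratio of 0.924 (95% interval 0.79 to 1.08). ADGRV1, a very large receptor of inner ear hair bundles, had 242 and 268 reads, a ratio of 1.08 (0.906 to 1.29). For ADGRE2 the ratio was 1.10 (0.663 to 1.83). All 3 intervals included 1.

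**Figure D2:**
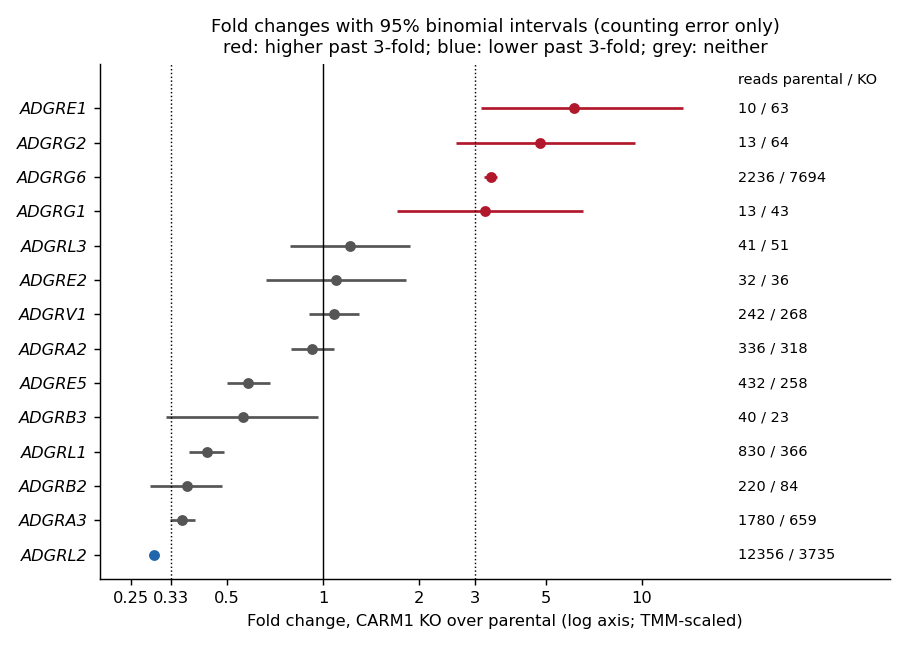
The TMM-scaled fold change of CARM1 KO over parental cells (log axis) is shown for the 14 receptors with at least 10 reads, with exact 95% binomial intervals and the reads of each library at the right; dotted lines mark 3-fold. ADGRE1 and ADGRG6 have whole intervals above 3-fold and ADGRL2 has its whole interval below, while ADGRG1 and ADGRG2 have intervals that cross the line.

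Some of these counts could include reads of other genes, since reads that fit several genes are apportioned by RSEM and the use of strand is not given in the sources used here. ADGRE2 and ADGRE5 shared 313 of the 6717 windows of 75 bases in the ADGRE2 transcript, and ADGRA3 shared 277 of 4503 with its processed pseudogene ADGRA3P1. Exons of ADGRA2 overlapped 1629 bases of BRF2 on the opposite strand, which had 474 and 875 reads. Those of ADGRE2 overlapped 1355 bases of ZNF333, with 286 and 83 reads. Of the 5 receptors past 3-fold, none shared a window of its canonical transcript with another gene. Only that transcript was searched, which gave 7358 windows for ADGRL2, whose annotated exons together hold 24178 bases. Of these 5, ADGRE1 alone shared exon bases with another annotated gene, 163 bases of an unnamed transcript on the opposite strand.

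The remaining 14 receptors were near or at 0. ADGRA1, ADGRF4, ADGRG3 and ADGRG7 had 0 reads in both libraries. The other 10 had between 1 and 9 reads in both libraries together. No member of subfamilies D and F reached 10 reads. The 10 receptors included ADGRF5, a lung receptor that limits surfactant, with 1 read in each library, ADGRE3, with 1 and 0 reads, and ADGRD1, also called GPR133, with 5 and 2 reads. ADGRB1, a receptor of the BAI group that takes part in engulfment of dying cells, had 3 and 2 reads. ADGRD2 had 3 reads in each library, ADGRF1 had 3 and 0, ADGRF3 had 4 and 2, and ADGRG4 and ADGRG5 each had 0 and 1. With ADGRL4, described above, these are all 10. For the 9 others neither absence nor a difference between the libraries could be shown at this depth. ADGRL4 was likewise under the minimum of 10 reads, and no difference was called for it by that rule.

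Per length, the order of the receptors differed between the libraries. In parental cells ADGRL2 stood at 16.4 RPKM (95% Poisson interval 16.1 to 16.7), followed by ADGRG6 at 8.47, ADGRA3 at 6.17, ADGRL1 at 3.14, ADGRE5 at 2.58, ADGRA2 at 1.52 and ADGRB2 at 0.911. The intervals of neighbours in this order did not overlap, down to ADGRV1 at 0.23. From ADGRV1 down to ADGRG2 at 0.0411, each neighbouring pair overlapped. In CARM1 KO cells ADGRG6 at 28.5 was followed by ADGRL2 at 4.84 (4.69 to 5.00) and ADGRA3 at 2.23. ADGRE5 at 1.5, ADGRA2 at 1.41 and ADGRL1 at 1.35 then overlapped. ADGRE1 at 0.533 and ADGRB2 at 0.34 followed, and from ADGRE1 down to ADGRB3 each neighbouring pair overlapped. ADGRL2 was thus 1.94 times ADGRG6 in parental cells, and ADGRG6 was 5.88 times ADGRL2 in CARM1 KO cells. When the longest transcript replaced the union of exons as the length, these ratios were 4.43 and 2.57, with ADGRL2 still ahead in parental and ADGRG6 in CARM1 KO cells, and ADGRA3 passed ADGRG6 in parental cells.

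**Figure D3:**
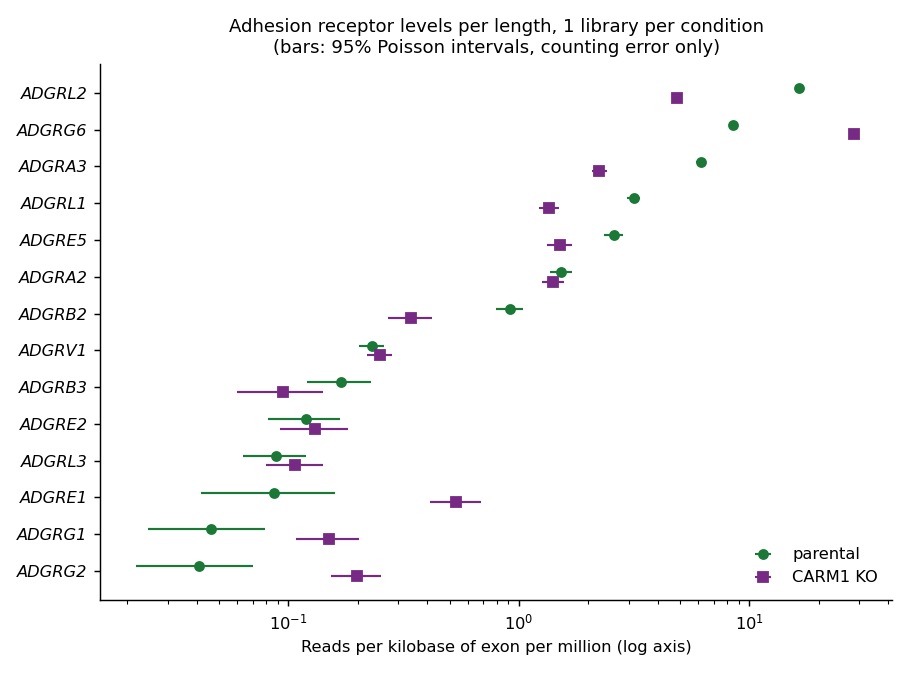
RPKM (log axis) of the 14 receptors in parental cells (green circles) and CARM1 KO cells (purple squares), 1 library each, with 95% Poisson intervals that cover counting error only. ADGRL2 moves from 16.4 to 4.84 and ADGRG6 from 8.47 to 28.5, while ADGRA2 and ADGRV1 have overlapping intervals.

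The known ligands and binding partners of the receptors were compared next, from a list of 28 genes chosen for what they bind. The list was made with earlier results of these data known. Of the 28 genes, 21 had at least 10 reads, 5 were higher and 3 were lower past 3-fold, and the median log2 fold change was 0.61. Over all genes 12.4% were higher, 11.2% were lower and the median was -0.02. Of the 4 listed partners of ADGRG6, 3 were higher past 3-fold. Of these 3, COL4A1 and COL4A2 overlap at their starts on opposite strands of chromosome 13, so they need not be separate changes. COL4A1 and COL4A2, the main chains of collagen IV in basement membranes, had 703 and 3315 reads and 1063 and 4528 reads, which was 4.61-fold (95% interval 4.24 to 5.00) and 4.16-fold (3.89 to 4.45) higher in CARM1 KO cells. LAMA2, a laminin chain that ADGRG6 binds on Schwann cells, had 21 and 100 reads and was 4.65-fold higher (2.88 to 7.84). PRNP, the prion protein, had 2866 and 5081 reads and was 1.73-fold higher (1.65 to 1.81), under the threshold.

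For ADGRG1 and the latrophilins, receptors and partners did not go one way. COL3A1, the collagen III chain that binds ADGRG1, had 14587 parental reads and 1 CARM1 KO read, with an interval that began at 2680-fold lower, while the receptor was higher. TGM2, another ADGRG1 partner, had 1279 and 1998 reads and was 1.53-fold higher (95% interval 1.42 to 1.64). Of the latrophilin partners, FLRT2 was 6.50-fold higher (5.59 to 7.60), with 194 and 1291 reads. TENM2, a teneurin, had 38 reads and 1 read and was 38.9-fold lower (6.57 to 1577). TENM3, the teneurin with most reads, had 777 and 845 reads, a ratio of 1.06 (0.962 to 1.17). FLRT3 had 14 and 20 reads.

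The partners of ADGRE5 also differed among themselves. CD55, the complement regulator that binds ADGRE5, had 255 and 1524 reads and was 5.84-fold higher (95% interval 5.11 to 6.69). THY1, another ADGRE5 ligand, had 678 and 4 reads and was 174-fold lower (67.5 to 639). Of the 5 fibroblast markers, PDGFRA (14326 and 2 reads), DCN (24 and 0) and LUM (61 and 1) were lower like COL3A1 and THY1, whereas COL1A1 (131 and 537) was higher and FAP had 2 and 3 reads. Their part in these values was not tested. Of the ADGRV1 partners in hair bundles, WHRN had 58 and 39 reads and PDZD7 had 32 and 87 reads, and neither passed 3-fold. Of the ADGRA2 partners, RECK had 234 and 254 reads, WNT7B had 16 and 19 reads, and WNT7A had 0 reads in both libraries. The compared partners of ADGRB3 were higher while ADGRB3 was lower, all without passing 3-fold. C1QL1 had 35 and 94 reads, a ratio of 2.62 (1.76 to 3.99), and C1QL4 had 23 and 63 reads, a ratio of 2.675 (1.64 to 4.52). RTN4R, a partner of ADGRB1, had 39 and 115 reads. PTK7 and PLXDC2, partners of ADGRD1, had 1717 and 1982 reads and 254 and 125 reads. None of these passed 3-fold.

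**Figure D4:**
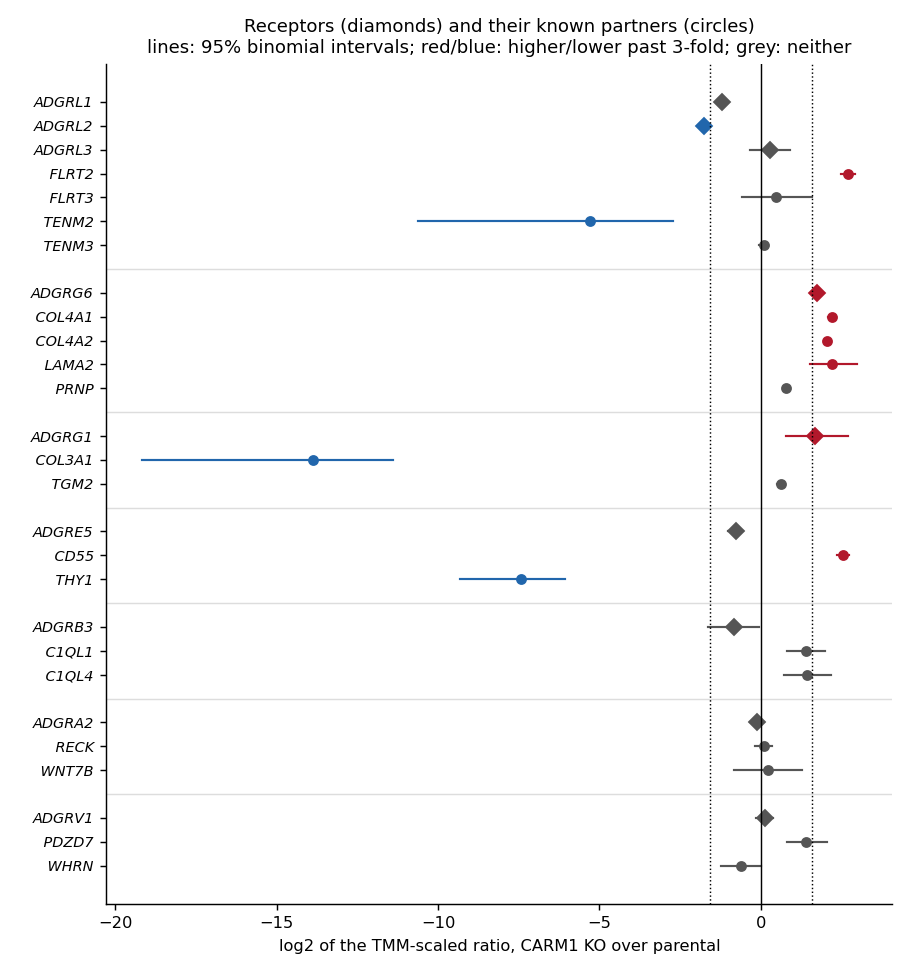
The log2 of the TMM-scaled ratio of CARM1 KO over parental cells is shown for receptors (diamonds) and, below each, for its known partners with at least 10 reads (circles), with 95% binomial intervals; red and blue mark genes higher and lower past 3-fold, and dotted lines mark 3-fold. ADGRG6, COL4A1, COL4A2 and LAMA2 lie on the right together, whereas ADGRG1 and COL3A1 lie on opposite sides.

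Of 25 genes that act after the receptors, 24 were compared, 1 was higher, 2 were lower and the median log2 fold change was 0.20, against the same 12.4%, 11.2% and -0.02 over all genes. GNA15, a G protein alpha subunit of the Gq family, had 142 and 464 reads and was 3.19-fold higher (95% interval 2.64 to 3.88). GRK3, a kinase that turns off active receptors, had 1206 and 302 reads and was 4.09-fold lower (3.60 to 4.65). ELMO1, an adaptor through which ADGRB1 drives engulfment, had 20 reads and 1 read and was 20.5-fold lower (3.28 to 849). The other 21 compared genes did not pass 3-fold. CELSR1, CELSR2 and CELSR3 form subfamily C of the adhesion receptors, keep older symbols and so were not among the 28. Their reads were 324 and 318, 141 and 294, and 407 and 633, and none passed 3-fold.

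Each receptor was finally set beside its 10 nearest protein-coding genes with at least 10 reads, 5 on each side, to show the values of its neighbourhood. These genes spanned from 0.51 megabases around ADGRL1 and ADGRE5 to 14.12 megabases around ADGRB3. The span was 6.56 megabases for ADGRL2 and 4.61 megabases for ADGRG6, so neighbours can lie far from the receptor. Over all compared protein-coding genes, 12.4% were higher and 9.02% were lower past 3-fold. ADGRL2 had a log2 fold change of -1.76, lower than each of its 10 neighbours, whose values ran from -1.43 to 2.95 with a median of 0.44. Past 3-fold, 3 of these neighbours were higher and 1 was lower. ADGRG6, at 1.75, had neighbours with a median of -0.23 and a range of -1.13 to 2.05, and 1 of the 10 was higher past 3-fold. ADGRE1, at 2.41, was above each of its neighbours, whose median was 0.68 and whose highest value was 2.07, and 2 of them were higher past 3-fold. ADGRL1 at -1.21 and ADGRE5 at -0.77 lie near each other on chromosome 19 and have the same 10 neighbours. They were also lower than each of these neighbours, the lowest of which stood at -0.63, which is 1 set of genes and not 2. Around ADGRG2, at 2.11, the median was 0.08 and the range -6.22 to 2.56, with 2 neighbours higher and 1 lower past 3-fold. Around ADGRG1, at 1.55, the median was 0.31 and the range -0.38 to 2.31, with 2 neighbours higher past 3-fold. The ADGRG1 cluster on chromosome 16 also holds ADGRG5 and ADGRG3, with 1 read between them in both libraries together. DNA copy number was not analysed here.

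**Figure D5:**
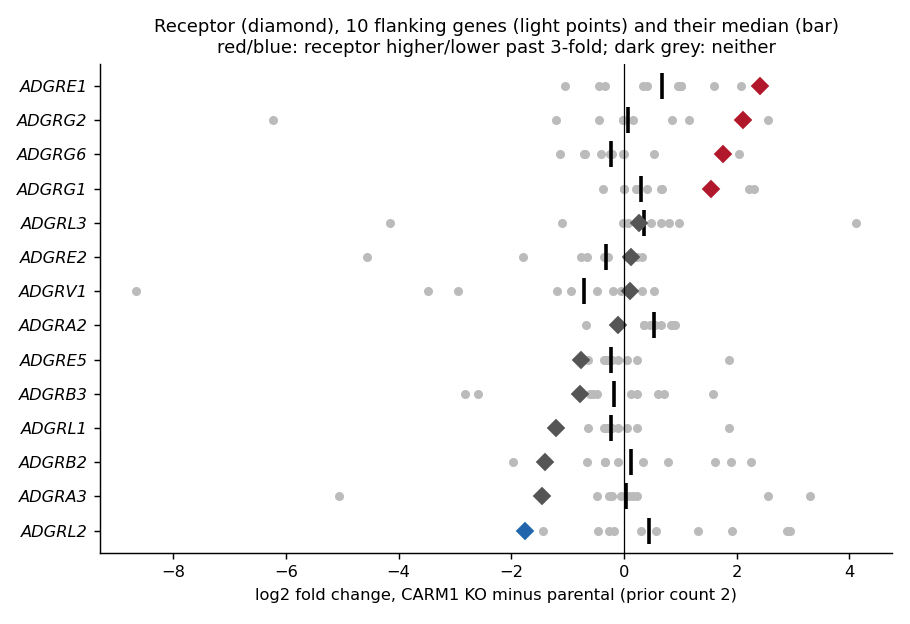
The log2 fold change (CARM1 KO minus parental, prior count of 2) of each receptor (diamond; red or blue, past 3-fold) is shown beside those of its 10 nearest compared protein-coding genes (light points) and their median (black bar). ADGRL2 at -1.76 lies left of all its neighbours and ADGRE1 at 2.41 lies right of all its neighbours.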

How the data were processed

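Per the labels and methods, the authors aligned 75 bp paired-end reads of ScriptSeq libraries to hg19 with bowtie2, and used RSEM to estimate counts for each Ensembl gene. The deposited estimated counts are whole numbers, not normalized, with 1 library in each condition. The Ensembl release and the strand setting are not given in the sources used here.

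Genes were named from GENCODE release 44 lifted to GRCh37. Members and gene lists were chosen with earlier results of these data known. Scaling used TMM in edgeR 4.0.16 (R 4.3.3). Intervals are exact binomial (ratios, shares) or Poisson (levels) at 95%, from scipy 1.17.1. No p-value is given, since a quasi-likelihood fit in edgeR needs replicates. Log2 values have a prior count of 2. In a self-test with 200 of 18563 genes changed 8-fold, 200 were recovered and 64 of 18363 unchanged genes were called. The simulated counts held counting error only, and the changed genes were drawn from those with higher counts. The self-test therefore checks the code and gives no error rate for low counts, for folds near 3 or for differences between cultures. Genes named are all members, listed genes past 3-fold, partners of members and CARM1. Other genes were named after their values were seen. RefSeq promoters (GRCh38.p14) matched 19 members by symbol. PECAM1 was not matched. Of the listed genes, 3 are not reported here, and the counts and medians of lists leave them out. Alternatives were other scalings, minimums of reads, fold thresholds and edgeR exact tests with assumed spreads, and DESeq2 1.42.0 size factors.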

Additional observations from a re-analysis of the deposited data

How the results depend on the processing

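With an edgeR exact test at an assumed coefficient of variation of 0.4 and an FDR under 0.05, 0 receptors were higher and 0 were lower, against 532 and 894 of all genes, since a wider spread was assumed. At 0.12 the same 4 and 1 receptors passed as above. With the whole interval past 3-fold, 2 receptors were higher (ADGRE1 and ADGRG6) and ADGRL2 was lower, against 1292 and 1234 of all genes. With a fold above 2, 4 receptors were lower, adding ADGRA3, ADGRB2 and ADGRL1, against 3180 of all genes. With at least 1 read, 2 receptors were lower, adding ADGRL4, and the median log2 fold change was -0.23. With at least 50 reads, 1219 of all genes were lower, as fewer genes were tested. Under the other scalings the same 5 receptors passed 3-fold, and all 70 log2 fold changes of receptors under other scalings or a prior count of 0.5 lay within their intervals. With the longest transcript as length, 9 of 28 ranks moved. No paired analysis was possible because each condition holds 1 library, so leaving a library out gave no comparison either. Depth limited the 14 receptors with fewer than 10 reads.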

Other observations

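Genes that carry an ADGR symbol without coding for a protein were examined after their values were seen. ADGRA3P1, the processed pseudogene of ADGRA3, had 46 parental and 22 CARM1 KO reads and was 2.14-fold lower (95% interval 1.26 to 3.74), beside the 2.76-fold of ADGRA3, with which it shares sequence. ADGRF5P1, a pseudogene of the lung receptor ADGRF5, had 11 and 2 reads and was 5.63-fold lower (1.23 to 52.3), the only one of these genes past 3-fold. ADGRF5, with which it shares sequence, had 1 read in each library. ADGRL1-AS1, which shares 473 exon bases with ADGRL1 on the opposite strand, had 3 and 11 reads while ADGRL1 had 830 and 366. ADGRB3-DT, a long non-coding RNA named for its place beside ADGRB3, had 2 and 9 reads while ADGRB3 had 40 and 23. The ratios of ADGRL1-AS1 (3.58, 0.946 to 19.99) and ADGRB3-DT (4.39, 0.910 to 41.8) had intervals that included 1. ADGRE4P, ADGRF5P2, ADGRA1-AS1, ADGRD1-AS1, ADGRF5-AS1 and ADGRL3-AS1 had 0 reads in both libraries, and ADGRF2 had 1 read in each.

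By subfamily, the summed reads of subfamily L were 13236 in parental and 4152 in CARM1 KO cells, and those of subfamily G were 2262 and 7803. Subfamily A had 2116 and 977 reads, subfamily B had 263 and 109, and subfamily E had 475 and 357. Each sum is carried by 1 or 2 receptors (ADGRL2, ADGRG6, ADGRA3, ADGRB2 and ADGRE5), so it describes those receptors and not the subfamily.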
